A study of Mus musculus with 23 samples.

Results

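Protein kinase A (PKA) is the main effector of cyclic AMP (cAMP) in neurons. The members described here are 10 genes of its anchoring and catalytic machinery: 5 A-kinase anchoring proteins (AKAPs), Akap12, Akap5, Akap6, Akap7 and Akap13, and 5 PKA subunits, Prkaca, Prkacb, Prkar1a, Prkar1b and Prkar2b. They were picked by name, with their difference between CRE and RFP libraries already known, out of 56941 genes in the count tables, and all 10 were among the 14488 genes whose counts were high enough to be tested. For that reason their CRE-RFP differences are given as a description, with a standard error and no p-value. Tests of the members are kept for measures that the choice did not use.

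The RNA came from primary hippocampal neurons of Nedd8cKO mice, dissected at P0, in which loxP sites flank part of Nedd8, the gene of a small ubiquitin-like protein that is attached to cullins and other targets. At 1 day in culture the cells received lentivirus, driven by the neuronal Synapsin1 promoter, that encoded either RFP alone (RFP libraries, controls) or CRE recombinase with RFP (CRE libraries, Nedd8 deleted). Both groups carry the same loxP-flanked alleles, and RNA was taken at 12 days in culture by the labels and a day later by the study's methods. There were 23 libraries, 12 CRE and 11 RFP, in 3 numbered cultures, read here as separate preparations although no source says so in words, and 21 of them were compared, 11 CRE and 10 RFP.

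Levels are given as CPM, the counts of a gene per 1000000 counts of its library, adjusted with TMM factors. Total counts of the 21 libraries ran from 7430401 to 13345552 in CRE and from 9833872 to 17112815 in RFP libraries. Every member had at least 148 counts in each of them, so counting error is small beside the spread between libraries. Nedd8 itself stood at 61.4 ± 10.2 CPM (SD, n = 10) in RFP and at 11.5 ± 3.49 CPM (n = 11) in CRE libraries, with no overlap. Libraries CRE 1-3 and RFP 2-4 stood apart from the others. Mitochondrial genes took 0.261% and 3.43% of their counts, against 6.997% to 11.1% in the 20 libraries that did not stand apart, and their levels were tilted towards GC-rich genes. CRE 3-3, the shallowest library with 1546796 counts, stood apart in the same way, and it was left out of the comparison together with RFP 3-2. Log2 differences of the members are therefore also given over 19 libraries, without CRE 1-3 and RFP 2-4.

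PKA is held inactive as a tetramer of regulatory and catalytic subunits, and cAMP binding to the regulatory subunits frees the catalytic ones to phosphorylate their substrates. AKAPs bind the regulatory dimer and place the kinase next to receptors, channels, phosphatases and phosphodiesterases, so that cAMP acts locally. In hippocampal neurons this arrangement is known for its part in trafficking of AMPA receptors, in long-term plasticity, in transmitter release and, through the transcription factor CREB, in gene expression.

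Akap12, also called gravin or SSeCKS, is a large scaffold that binds PKA, protein kinase C and the beta-2 adrenergic receptor, and it was the member with the largest difference between the groups. It lies at chr10:4216118-4309470 on the plus strand of GRCm39. In the RFP libraries its level was lowest at 37.1, had a median of 45.0 and was highest at 71.0 CPM. In the CRE libraries the lowest level was 153, the median 267 and the highest 377 CPM. Every CRE library lay above every RFP library. The group means were 46.7 ± 10.4 CPM (SD, n = 10) and 260 ± 66.4 CPM (n = 11). The fitted log2 difference was 2.45 (SE 0.15), a 5.48-fold higher level in CRE, and 193 of the 14488 genes tested had a larger one. Over 19 libraries the log2 difference was 2.41, and CRE 3-3 and RFP 3-2, which took no part in the fit, held 124 and 48.7 CPM. Of all genes tested, 2.64% had every CRE library above every RFP library. Exons of Akap12 share 252 of their 6990 bases with a long noncoding RNA gene on the opposite strand, and how strand was set in the counting is not given in the sources used here.

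**Figure D1:**
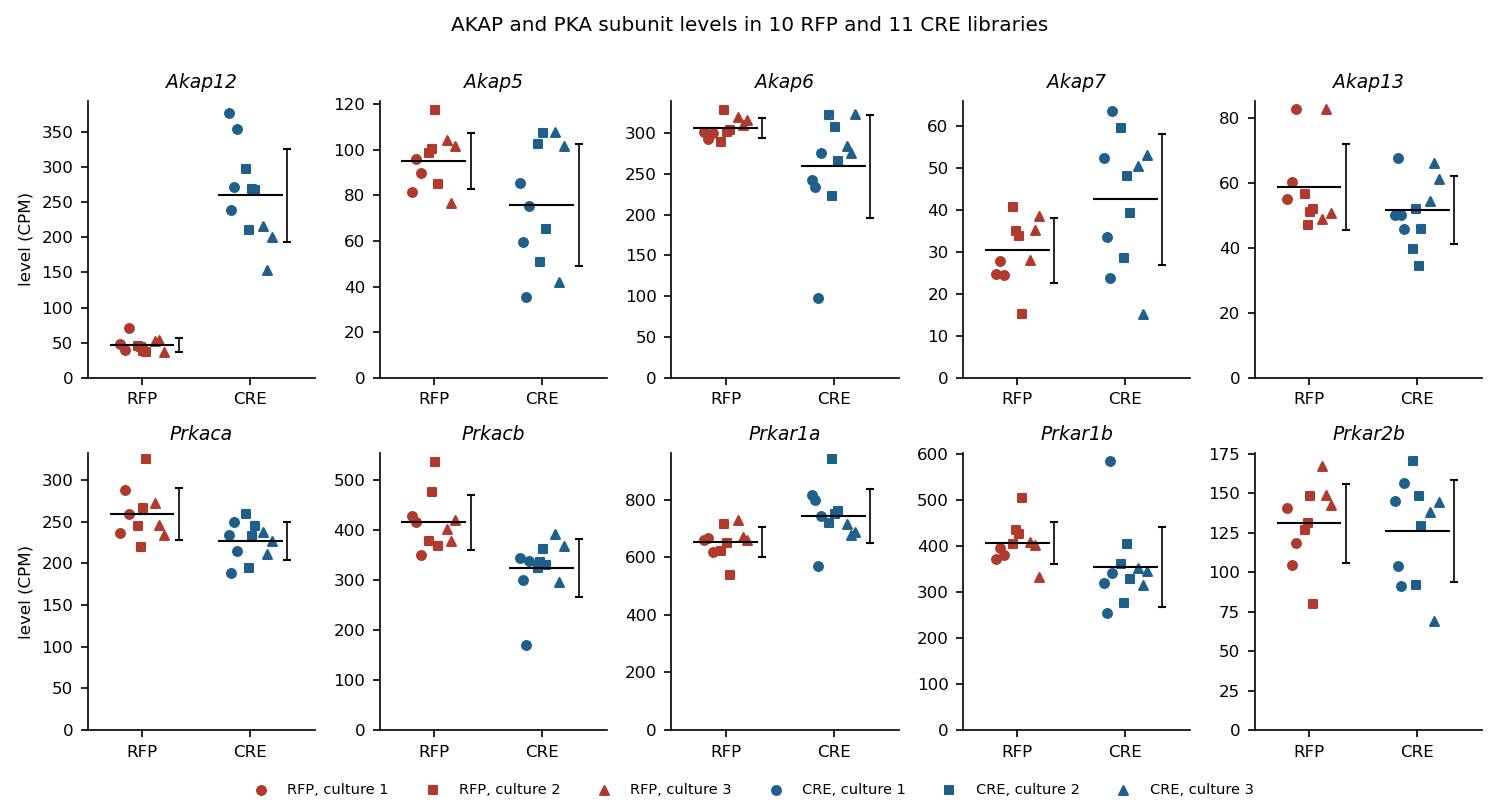
Levels of the 10 genes in CPM (vertical axis, linear, from 0) in 10 RFP and 11 CRE libraries. Marker shape gives the culture, the horizontal line is the mean and the bar beside it the SD. In the Akap12 panel the CRE libraries (153 to 377 CPM) lie above all RFP libraries (37.1 to 71.0 CPM), and in the other 9 panels the groups overlap.

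The 250 bases before the start of the canonical Akap12 transcript, which begins inside the gene, downstream of the first annotated exon, are shown because Akap12 carried the largest difference. They lie at chr10:4284295-4284544 on the plus strand of GRCm39, and the capitals mark the palindrome CACGTG, known as an E-box, whose last base is 116 bases from the start.
Akap12: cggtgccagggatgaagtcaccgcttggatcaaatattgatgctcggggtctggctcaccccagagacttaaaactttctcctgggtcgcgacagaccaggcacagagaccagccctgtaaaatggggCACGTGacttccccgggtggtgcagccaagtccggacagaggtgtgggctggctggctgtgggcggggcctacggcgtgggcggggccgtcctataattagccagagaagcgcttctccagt

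CACGTG was found in the same window of 6.26% of 21770 protein-coding genes, and among the 10 members in Akap12, Prkaca and Prkar1a. The cAMP response element TGACGTCA, the palindrome that CREB binds, was found before 1.69% of these genes and before none of the 10 members. A match describes letters in this window only, and its absence says nothing of what binds there.

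Akap5, Akap6, Akap7 and Akap13 had much smaller differences, and in each of them the groups overlapped. Akap5 (chr12:76371613-76382157), known as AKAP79/150, sits at the postsynaptic membrane with PKA, protein kinase C and calcineurin. Its RFP libraries ran from 76.5 through a median of 97.4 to 117 CPM. Its CRE libraries ran from 35.6 through 75.6 to 108 CPM. The log2 difference was -0.35 (SE 0.17), and 6 of 11 CRE libraries were below every RFP library and the other 5 inside the RFP range. CRE 1-3 was the lowest, and over 19 libraries the log2 difference was -0.29.

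Akap6 (chr12:52746017-53202382), which encodes mAKAP, places PKA and the phosphodiesterase PDE4D3 at the nuclear envelope. It was the steadiest AKAP among the RFP libraries, from 289 through 303 to 328 CPM, a mean of 306 ± 12.2 CPM. In CRE libraries it ran from 97.9 through 275 to 324 CPM, with CRE 1-3 far below the next library at 223 CPM. Of the 11 CRE libraries, 8 were below every RFP library. The log2 difference was -0.26 (SE 0.14) and -0.17 over 19 libraries, so the libraries that stood apart made it larger.

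Akap7 (chr10:25044988-25183768), also AKAP15/18, tethers PKA to calcium and sodium channels. Its level was 15.3, 30.9 and 40.7 CPM at the lowest, median and highest RFP library. In CRE libraries the corresponding levels were 15.2, 48.0 and 63.6 CPM. The CRE libraries were the more scattered, with 6 of 11 above every RFP library and CRE 3-2 just below all of them. The lowest RFP library was RFP 2-4, which stood apart. The log2 difference was 0.47 (SE 0.21) and 0.45 over 19 libraries, so that of the 5 member AKAPs Akap7 and Akap12 had the higher mean in CRE.

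Akap13 (chr7:75105282-75404358), or AKAP-Lbc, is a large scaffold that anchors PKA. It ran from 47.0 through 53.5 to 82.8 CPM in RFP libraries. In CRE libraries it ran from 34.5 through 50.1 to 67.7 CPM. The highest RFP values were those of RFP 1-3 and RFP 3-3, above every CRE library, and the rest of the RFP values were inside the CRE range. The log2 difference was -0.21 (SE 0.13) and -0.22 over 19 libraries.

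Of the catalytic subunits, Prkaca (chr8:84699575-84723091), which encodes C-alpha, ran from 219 through 252 to 326 CPM in RFP libraries. Its CRE libraries ran from 188 through 233 to 259 CPM. The ranges overlapped from 219 to 259 CPM, and the log2 difference was -0.21 (SE 0.09). Prkacb (chr3:146435311-146518793), which encodes C-beta, had the largest difference of the 5 subunits. Its RFP libraries ran from 349 through 408 to 535 CPM and its CRE libraries from 170 through 336 to 392 CPM. With a log2 difference of -0.38 (SE 0.12), 8 of 11 CRE libraries were below every RFP library and 6 of 10 RFP libraries above every CRE library. Over 19 libraries the log2 differences were -0.18 for Prkaca and -0.33 for Prkacb. The Prkaca pseudogene held at most 1 count in any library. Because the treatment of multi-mapping reads is not given, this does not show that counts of Prkaca were unaffected by it. Exons of Prkaca share 62 of 2813 bases with Smim46 on the same strand and 243 with a noncoding gene on the opposite strand.

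Of the regulatory subunits, Prkar1a (chr11:109513434-109560633), which encodes RI-alpha, drew the most counts of the members. It ran from 538 through 661 to 730 CPM in RFP libraries. In CRE libraries it ran from 568 through 742 to 943 CPM, with 6 of 11 above every RFP library. The log2 difference was 0.17 (SE 0.09) and 0.17 over 19 libraries. CRE 1-3 was its lowest CRE library and RFP 2-4 its lowest RFP library.

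Prkar1b (chr5:139002025-139136646) encodes RI-beta, the neuronal form of the type I subunit. It ran from 333 through 403 to 504 CPM in RFP libraries. In CRE libraries it ran from 255 through 342 to 586 CPM. Here the libraries that stood apart were the highest of their groups, CRE 1-3 at 586 CPM and RFP 2-4 at 504 CPM. The log2 difference was -0.22 (SE 0.12) and -0.28 over 19 libraries. Its exons share 500 of 8493 bases with a noncoding gene on the same strand, Gm15672, so some of its reads cannot be assigned with certainty.

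Prkar2b (chr12:32008448-32111363) encodes RII-beta, the main neuronal type II subunit, and type II is the class that most AKAPs prefer. It ran from 79.6 through 136 to 167 CPM in RFP libraries. In CRE libraries it ran from 69.2 through 138 to 170 CPM, almost the same range. The log2 difference of -0.07 (SE 0.15) was smaller than its standard error, and it was -0.09 over 19 libraries.

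Taking the members as a list, 3 had a higher mean in CRE (Akap12, Akap7, Prkar1a) and 7 a lower one. The absolute log2 difference was under 0.5 in 9 of 10 members and in 9642 of the 14488 genes tested. The median log2 difference of the 9 members without Akap12 was -0.21, beside 0.02 over all genes tested. Groups failed to overlap in 1 of the 10 members, Akap12, and in 4.72% of all genes tested, with 2.64% having all CRE libraries higher and 2.08% all CRE libraries lower. As background for the counts that follow, 30.2% of all genes tested passed an adjusted p of 0.05 between CRE and RFP, 16.4% as higher and 13.8% as lower in CRE.

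**Figure D2:**
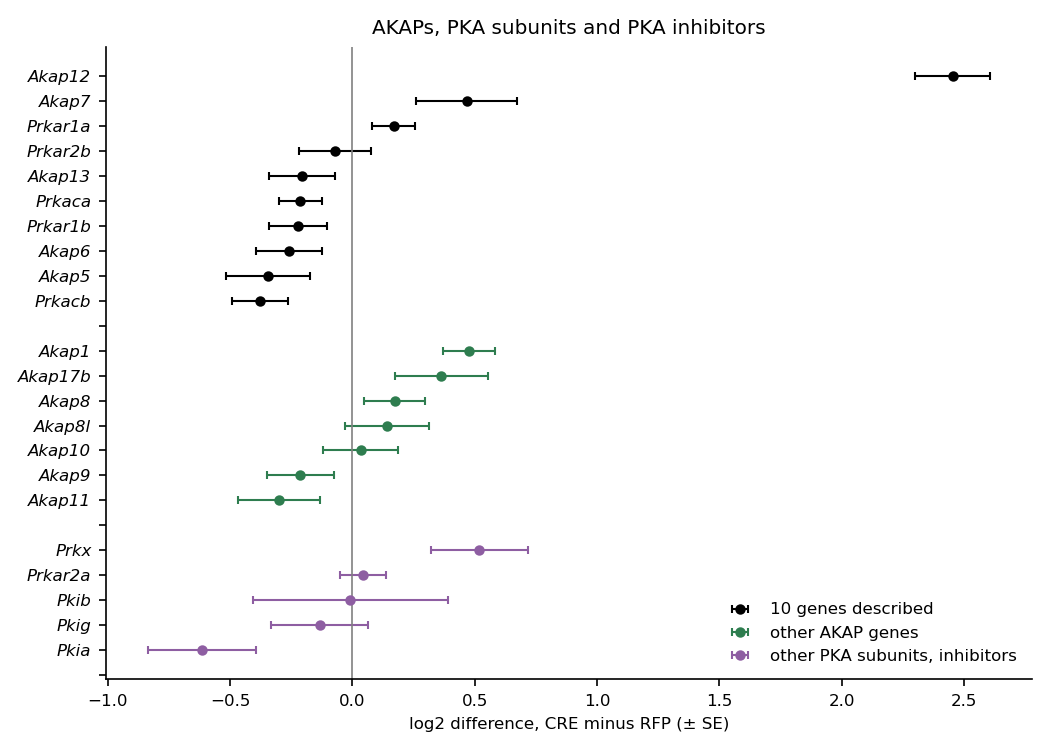
Fitted log2 differences, CRE minus RFP (horizontal axis, bars ± SE), of the 10 genes (black), of the other AKAP genes tested (green) and of the remaining PKA subunits and PKA inhibitors (purple). Akap12 stands at 2.45, and every other gene drawn lies between -0.62 (Pkia) and 0.52 (Prkx).

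Cell type markers moved between the groups as well, and in bulk RNA fewer cells of a type cannot be told apart from less RNA per cell. The labels name neurons, and the summed level of 6 neuronal markers had a median of 4478 CPM in RFP and 3035 CPM in CRE libraries, with 10 of 11 CRE libraries below every RFP library. Astrocyte markers were also present at high level, with medians of 4482 and 3384 CPM over 6 genes, and 7 markers of the oligodendrocyte lineage had medians of 1498 and 795 CPM. The 8 mesenchymal and mural markers summed to 21.9 to 180 CPM in RFP and to 84.6 to 482 CPM in CRE libraries, and 8 of 11 CRE libraries exceeded every RFP library. Rgs5, a pericyte marker, accounted for most of the difference between the mean sums, at 25.3 ± 12.6 CPM in RFP and 147 ± 80.1 CPM in CRE libraries, and 2 of the 8 markers were called higher (Rgs5 and Pdgfrb), while Dcn stood at 25.9 ± 12.8 and 12.4 ± 15.0 CPM and was not called. The 6 endothelial markers did not pass 7.37 CPM in sum in any of the 21 libraries, with Cldn5 at or under 3 counts in all of them, and the 6 microglial markers did not pass 7.61 CPM. Akap12 is also made by mesenchymal, mural and glial cells, and the part of these cells in its difference was not tested. Over 21 libraries the deviations of Akap12 from its group means had a Pearson r of 0.50 with those of the astrocyte sum, 0.36 with the neuronal sum, 0.34 with the mesenchymal sum and 0.10 with the oligodendrocyte lineage sum. Over 19 libraries these were 0.56, 0.49, 0.38 and 0.14. The Spearman correlations over 21 libraries were 0.28, 0.39, 0.36 and -0.03, so the order depends on the measure. The endothelial and microglial sums, both low, had a Pearson r of -0.43 and -0.08 over 21 libraries. All are given as a description, since both values come from the same libraries.

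Because CPM grows with the length of a transcript, levels of different genes were compared as CPM per kilobase of exon. The length was the union of annotated exons, which can exceed that of any 1 transcript, and the order and shares below depend on it. It was 2813 bases for Prkaca, 9029 for Prkacb and 9751 for Prkar1a. In CPM, Prkaca was the lowest of these 3 in RFP libraries, with means of 259, 415 and 654. In RFP libraries the order from the highest was Prkaca (92.1 ± 10.98), Prkar1a (67.0 ± 5.47), Prkar1b (47.8 ± 5.27), Prkacb (45.9 ± 6.15), Prkar2b (23.3 ± 4.47), Akap6 (17.4 ± 0.694), Akap5 (11.7 ± 1.501), Akap12 (6.68 ± 1.49), Akap7 (5.67 ± 1.44) and Akap13 (2.73 ± 0.614), all as mean ± SD in CPM per kilobase over 10 libraries. Prkaca lay above Prkar1a, Prkacb above Prkar2b and Akap6 above Akap5 with no overlap of their ranges. The ranges of the other neighbours overlapped, and Prkar1b exceeded Prkacb in 6 of 10 libraries and Akap12 exceeded Akap7 in 6 of 10, so these neighbours cannot be ordered. In CRE libraries Akap12 stood between Prkar1b (41.6 ± 10.2) and Prkacb (35.8 ± 6.44), at 37.1 ± 9.50 CPM per kilobase (SD, n = 11), and the ranges of all 3 overlapped.

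The summed mRNA of the 5 AKAPs thus had a different make-up in the groups. Per kilobase, Akap12 supplied 15.1% ± 2.96 of the summed mRNA of the 5 AKAPs in RFP libraries (11.7% to 21.7%, n = 10). In CRE libraries it supplied 51.9% ± 8.46 (39.7% to 69.9%, n = 11). The highest share was that of CRE 1-3, which stood apart, and the next was 59.7% in CRE 1-1. Over all 12 AKAP genes tested its share was smaller, 5.45% ± 1.21 in RFP and 24.5% ± 5.36 in CRE libraries. The share of Akap6 was 39.5% ± 2.60 in RFP and 20.9% ± 5.62 in CRE, and that of Akap5 26.5% ± 2.91 and 12.9% ± 3.35. The summed level of the 5 AKAPs was 44.2 ± 2.74 CPM per kilobase in RFP and 71.5 ± 14.2 in CRE, whereas the sum of the 4 without Akap12 was 37.5 ± 2.46 and 34.4 ± 8.66. The level of Akap12 was 0.583 ± 0.171 of that of Akap5 in RFP libraries and 4.42 ± 1.84 times that of Akap5 in CRE libraries. CRE 1-3 also held the highest such ratio (8.84), the lowest Akap6 share (10.0%) and the lowest CRE sum of the 4 (16.7 CPM per kilobase). These shares come from the same contrast that chose the genes and carry no test.

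**Figure D3:**
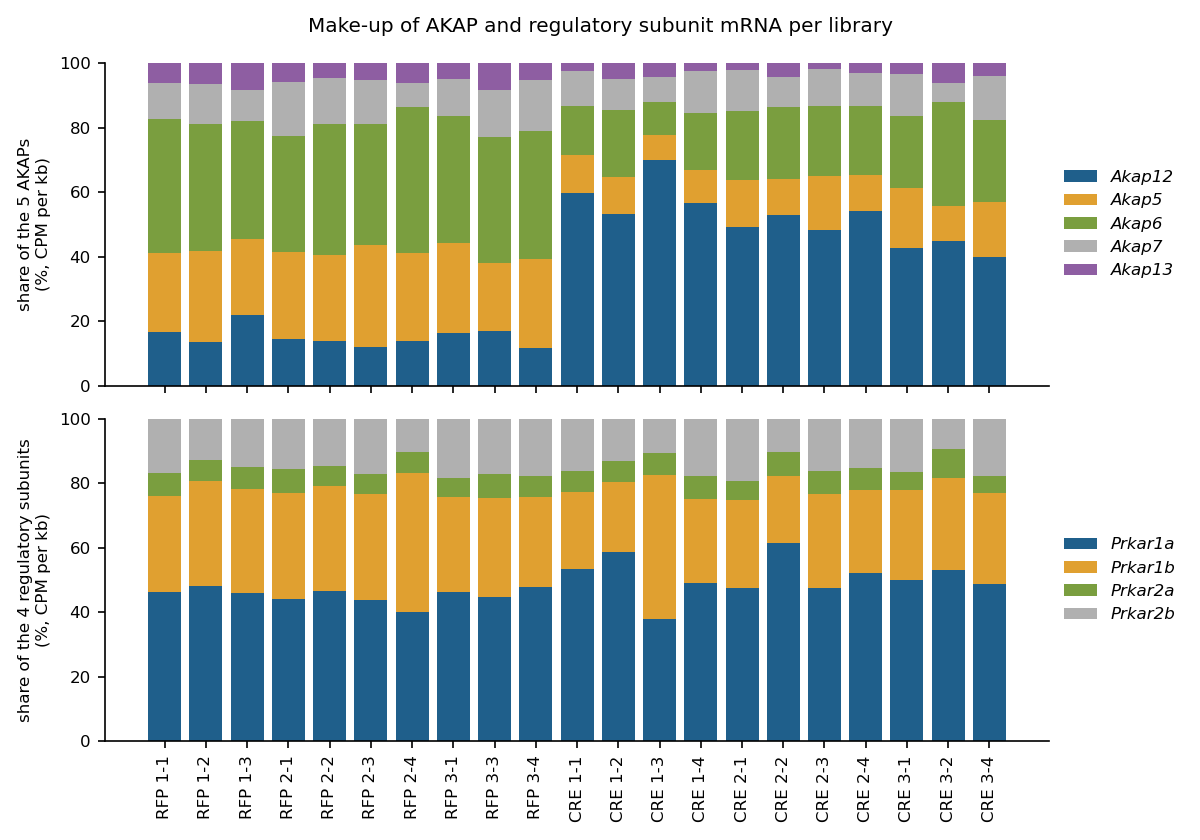
Shares (vertical axis, percent of summed CPM per kilobase) of the 5 AKAPs (upper panel) and of the 4 PKA regulatory subunits (lower panel) in each of 21 libraries (horizontal axis, RFP on the left, CRE on the right). The Akap12 segment spans 11.7% to 21.7% in RFP and 39.7% to 69.9% in CRE libraries, while the order of the regulatory subunits is alike in both groups except in CRE 1-3 and RFP 2-4, where Prkar1b is the largest.

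Among the kinase subunits, Prkaca supplied 66.6% ± 4.30 of catalytic subunit mRNA per kilobase in RFP and 69.3% ± 4.85 in CRE libraries, and the 82.5% of CRE 1-3 was the highest. Prkar1a supplied 45.3% ± 2.36 and 50.8% ± 6.24 of regulatory subunit mRNA, with 8 of 11 CRE libraries above every RFP library, Prkar1b 32.4% ± 4.10 and 27.6% ± 6.33, and Prkar2b 15.7% ± 2.49 and 14.8% ± 3.43. Prkar2a, the remaining regulatory subunit, was included to complete the set and held 6.61% ± 0.537 and 6.79% ± 1.05. Summed regulatory over summed catalytic mRNA per kilobase was 1.08 ± 0.104 in RFP (0.882 to 1.204) and 1.30 ± 0.110 in CRE libraries (1.15 to 1.48), and 9 of 11 CRE libraries were above every RFP library. The lowest RFP ratio was that of RFP 2-4, and CRE 1-3 held 1.44, both libraries that stood apart. Like the AKAP shares, these values come from the contrast that chose the genes and carry no test.

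Whether the CRE-RFP difference of a member varied between the 3 cultures was a question its choice had not used. CRE and RFP libraries were matched here by culture number only. Same-numbered libraries deviated from their group means with correlations of 0.035, 0.0049 and 0.15. No pairing by number was seen, but 3 cultures are too few to exclude it. Akap12 was higher in CRE by a log2 difference of 2.53 (SE 0.24) in culture 1, 2.64 (SE 0.21) in culture 2 and 1.98 (SE 0.24) in culture 3. Its CRE means were 310 ± 65.9 CPM (SD, 4 libraries), 261 ± 36.7 (4 libraries) and 190 ± 32.7 (3 libraries), and the corresponding RFP means were 52.8 ± 16.3, 41.3 ± 4.30 and 47.8 ± 9.13 CPM. The edgeR quasi-likelihood F test of the interaction of culture and virus gave p = 0.106 for Akap12, with an adjusted p of 0.977 over all genes. Across the 10 members the unadjusted p ran from 0.106 to 0.909 and none passed, neither here nor with DESeq2. This test called 0.0069% of all genes, and 595 genes had an unadjusted p under 0.05. In 9 of 10 members the difference had 1 sign in all 3 cultures, as it did in 55.8% of all genes tested, and Prkar2b was the exception, at 0.01 (SE 0.26), 0.13 (SE 0.24) and -0.39 (SE 0.28). The signs within cultures are part of the pooled difference known when the members were picked, so this count is a description. In culture 3 the differences of Akap13 (-0.01, SE 0.23) and Prkar1a (0.01, SE 0.16) were far smaller than their errors.

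**Figure D4:**
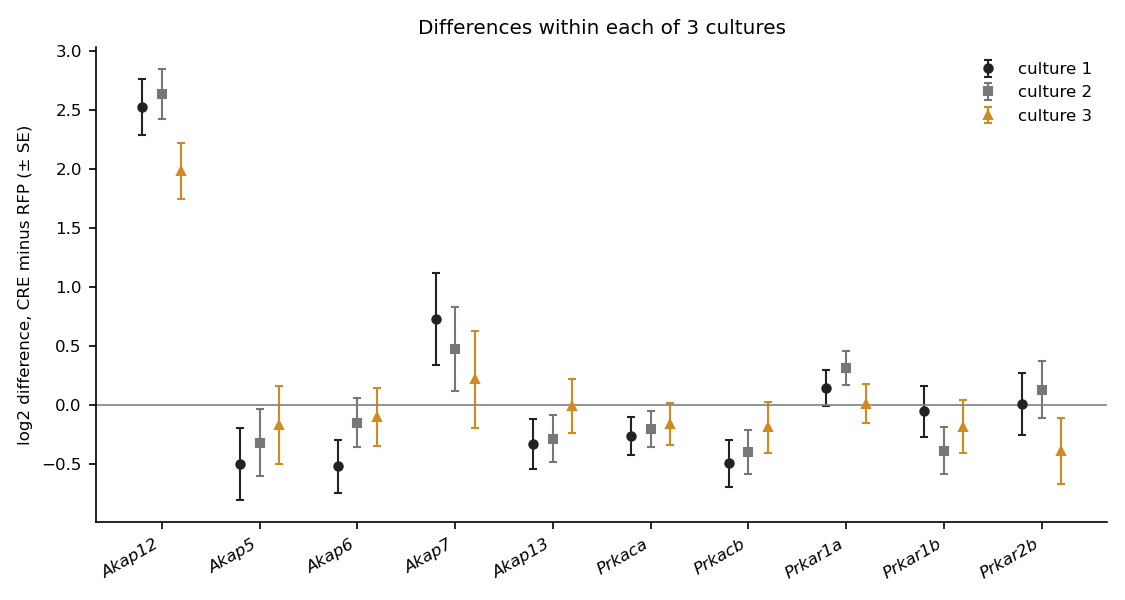
Log2 differences, CRE minus RFP (vertical axis, bars ± SE), of the 10 genes within each of 3 cultures (3 or 4 libraries per group and culture, groups matched by culture number only). Akap12 lies between 1.98 and 2.64 in the 3 cultures, and the other 9 genes lie between -0.52 (Akap6, culture 1) and 0.73 (Akap7, culture 1).

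Among the RFP libraries alone, none of the 10 members was called as different between the cultures. The edgeR F test over 10 libraries gave unadjusted p from 0.119 (Prkar2b) to 0.872 (Prkaca) and adjusted p from 0.662 to 0.985, while 0.542% of the 15488 genes tested were called and 1455 had an unadjusted p under 0.05. Without CRE, Prkar2b averaged 121 ± 18.1, 121 ± 29.4 and 153 ± 13.0 CPM in cultures 1, 2 and 3. The Akap12 means of the cultures overlapped in range, from 37.1 to 45.9 CPM in culture 2 and from 39.8 to 71.0 CPM in culture 1.

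The genes whose levels followed Akap12 most closely within the groups were searched for among 14487 others, as deviations of log2 CPM from the group mean over 21 libraries. Ccnd1, encoding cyclin D1, came first with a Pearson r of 0.83 (Spearman correlation 0.84), followed by Lcn2, a secreted iron-carrier protein (0.79), Nln, a peptidase (0.79), Hacd2, an enzyme of long-chain fatty acid synthesis (0.78), and Glo1, which clears methylglyoxal (0.77). Without CRE 3-2 and RFP 1-3, whose Akap12 levels were farthest from the median, their r was 0.80, 0.64, 0.82, 0.65 and 0.66. Being the highest of so many, these values are descriptions. Of the members, Prkar2b (r = 0.53, rank 286) and Akap7 (0.44, rank 651) were nearest to Akap12. Both had higher r within the CRE libraries (0.67 and 0.66) than within the RFP libraries (0.28 and -0.01). Akap13 went the other way, with r of -0.59 within CRE, 0.69 within RFP and -0.06 over all 21 libraries. These differences were not tested. Akap5 (0.17), Prkaca (0.11) and Prkacb (-0.17) were far from it in pattern.

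The rest of the PKA pathway was followed through 139 further genes in 12 lists by role, of which 137 had an identifier of their own and 125 were tested. Of these 125, 23 were called higher (18.4%, against 16.4% of all genes) and 37 lower (29.6%, against 13.8%) at an adjusted p under 0.05 by the edgeR quasi-likelihood test. Their median log2 difference was -0.01. The lists, like the members, were chosen with earlier results of these data known. Their shares and adjusted p-values, here and below, are therefore a description and not independent evidence. Over 19 libraries these lists held 26 higher and 46 lower, and without culture 2 they held 7 higher and 26 lower. Of the 37 lower calls, 8, 9 and 7 stood in 3 lists, the anchoring proteins without the AKAP name, the PKC and calcineurin partners and the neuronal PKA substrates.

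**Figure D5:**
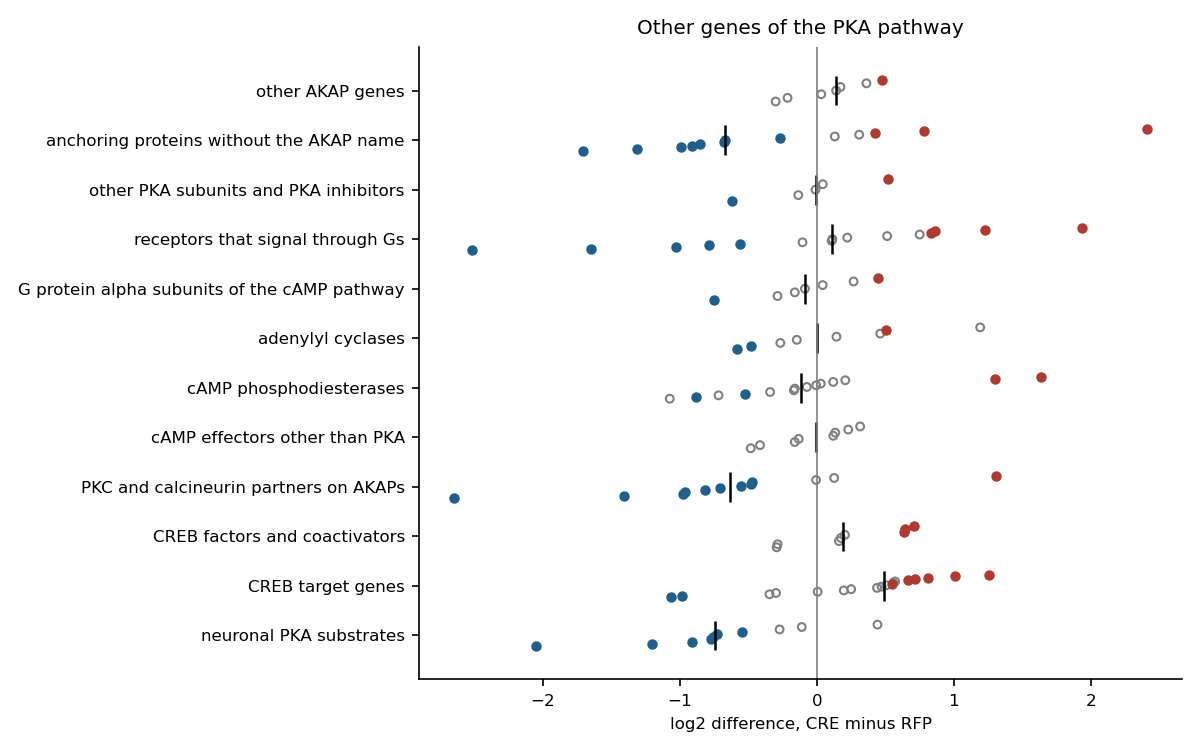
Log2 differences, CRE minus RFP (horizontal axis), of the 125 tested genes in 12 lists of the PKA pathway (rows). Red points are genes called higher and blue points genes called lower at an adjusted p under 0.05, open points were not called, and the black bar is the median of the list. The medians of the PKC and calcineurin partners (-0.63), the anchoring proteins without the AKAP name (-0.67) and the neuronal PKA substrates (-0.74) lie left of 0.

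Among the other AKAP genes, 1 of 7 tested was called. Akap1, which anchors PKA to the outer mitochondrial membrane, rose from 56.9 ± 6.85 CPM (SD, n = 10) to 80.2 ± 14.5 CPM (n = 11), a log2 difference of 0.48 (SE 0.11, adjusted p = 0.00129). The list had a median of 0.14, and the call of Akap1 was lost without culture 2 (adjusted p = 0.0635). The locus of Pakap, which includes Akap2, is split over 3 overlapping identifiers and was not counted.

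Anchoring proteins that do not carry the AKAP name moved more, with 3 of 13 higher and 8 lower (median -0.67). Wasf1, encoding WAVE1, a scaffold of PKA and of the Arp2/3 actin machinery, fell from a range of 208 to 305 CPM in RFP to 49.3 to 113 CPM in CRE libraries (log2 difference -1.71, SE 0.13, adjusted p = 4.07e-10). All 11 CRE libraries were below all RFP libraries. Synm, encoding the intermediate filament protein synemin, fell by 1.31 on the log2 scale (adjusted p = 4.07e-07) and Cbfa2t3, encoding the repressor MTG16, by 0.99 (adjusted p = 1.62e-05). In the other direction Rab32, a small GTPase of mitochondria and lysosome-related organelles, rose from 1.40 ± 0.666 to 7.56 ± 2.68 CPM (log2 difference 2.41, SE 0.30, adjusted p = 9.68e-07), a log2 difference close to that of Akap12, with every CRE library above every RFP library.

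Of the remaining PKA subunits and inhibitors, 1 of 5 rose and 1 fell. Prkx, a catalytic subunit homologue, was at 29.6 ± 6.51 CPM in RFP and 42.9 ± 14.7 CPM in CRE libraries (log2 difference 0.52, adjusted p = 0.0479). Pkia, the heat-stable inhibitor that binds free catalytic subunits, was at 546 ± 94.4 and 361 ± 124 CPM (log2 difference -0.62, adjusted p = 0.0349). Both calls were close to the threshold and both were lost with the library number as a block or without culture 2 or 3. Over 19 libraries the same edgeR test gave an adjusted p of 0.00153 for Prkx and 2.86e-05 for Pkia.

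Upstream of PKA, receptors that couple to the stimulatory G protein were split, with 4 of 15 higher and 5 lower. Adcyap1r1, the receptor of the neuropeptide PACAP, fell from 284 ± 60.0 to 142 ± 27.0 CPM, with no overlap (log2 difference -1.03, adjusted p = 1.11e-06). The serotonin receptor Htr6 fell from 7.95 ± 1.68 to 2.58 ± 1.49 CPM. The constitutively active orphan receptors Gpr12 (31.2 ± 3.71 to 21.5 ± 4.64 CPM) and Gpr6 (3.20 ± 1.66 to 0.552 ± 0.552 CPM) fell as well, with adjusted p of 0.00182 and 0.0011, and the call of Gpr12 was lost without culture 2 (adjusted p = 0.176).

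Of 7 G protein alpha subunits tested, Gnal, the stimulatory alpha subunit of olfactory and striatal neurons, fell from 253 ± 18.7 to 152 ± 42.2 CPM (log2 difference -0.75, adjusted p = 1.58e-04). Gnai2, an inhibitory subunit, rose from 209 ± 23.8 to 289 ± 104 CPM (0.45, adjusted p = 0.0194), a call lost without culture 2 (0.0815) or culture 3 (0.109). Of 8 adenylyl cyclases, the calcium-stimulated Adcy1 fell from 675 ± 128 to 457 ± 88.8 CPM (-0.58, adjusted p = 6.14e-04), Adcy2 rose from 25.4 ± 2.82 to 36.6 ± 5.96 CPM with no overlap (0.51, adjusted p = 0.00105), and Adcy3 was called lower at an adjusted p of 0.0491, a call that was lost in 8 of 14 alternatives. The enzymes that make cAMP thus had 1 called higher and 2 called lower.

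Of 14 phosphodiesterases that degrade cAMP, 2 rose and 2 fell. Pde3a rose from 23.5 ± 7.27 to 58.5 ± 13.4 CPM (log2 difference 1.30, adjusted p = 4.84e-06) and Pde1c, a calmodulin-activated form, from 8.71 ± 4.81 to 27.3 ± 10.3 CPM (1.63, adjusted p = 6.69e-05). The related Pde1a fell from 218 ± 46.8 to 120 ± 38.5 CPM (-0.88, adjusted p = 7.12e-04), and Pde4b from 66.6 ± 9.84 to 47.0 ± 16.2 CPM (-0.52, adjusted p = 0.0395), the latter not called without culture 2 (0.389). By the same edgeR test none of the 8 other cAMP effectors tested (Epac exchange factors, HCN channels, popeye proteins) was called, 1 had an unadjusted p under 0.05, and DESeq2 called 0 of them.

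Of 12 tested PKC and calcineurin genes, whose products share AKAP scaffolds with PKA, 9 fell and 1 rose (median -0.63). Prkce fell from 518 ± 57.5 to 267 ± 49.5 CPM with no overlap (log2 difference -0.98, adjusted p = 2.27e-07). The catalytic subunits of calcineurin, Ppp3ca and Ppp3cb, fell by 0.81 and 0.96 on the log2 scale, to 400 ± 98.5 and 193 ± 50.5 CPM. For comparison, the neuronal markers had a median log2 difference of -0.76, and 4 of the 6 were called lower.

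Neuronal substrates of PKA fell in 7 of 10 genes and rose in none (median -0.74). Syn1, encoding the vesicle protein synapsin, fell from 625 ± 71.0 to 370 ± 56.3 CPM (adjusted p = 1.23e-06), and Rims1, an active zone scaffold, from 135 ± 13.9 to 82.6 ± 15.6 CPM, both with no overlap between the 21 libraries, although Syn1 was not called over all 23 (adjusted p = 0.0627). Kcnd2, the A-type potassium channel of dendrites, fell from 122 ± 11.8 to 53.6 ± 18.3 CPM (log2 difference -1.20, adjusted p = 3.46e-06). Ppp1r1b, encoding the phosphatase inhibitor DARPP-32, fell from 15.0 ± 5.56 to 3.68 ± 2.11 CPM (-2.05, adjusted p = 6.19e-06). Many of these genes are chiefly neuronal, and the part of the lower neuronal marker sum in their counts was not tested.

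Downstream, 3 of 8 CREB factors and coactivators were higher in CRE and none lower. The coactivators Crtc3 (25.4 ± 4.30 to 40.3 ± 12.2 CPM, adjusted p = 0.00156) and Crtc2 (20.3 ± 5.07 to 32.0 ± 9.51 CPM, adjusted p = 0.00534) rose, as did Crem (10.999 ± 3.85 to 18.2 ± 7.98 CPM, adjusted p = 0.0466). Of 18 CREB target genes, 6 rose and 2 fell, with a median log2 difference of 0.49. Fos, an immediate early gene, rose from 13.7 ± 7.67 to 33.2 ± 24.7 CPM (1.26, adjusted p = 0.00588), with wide scatter among CRE libraries (15.1 to 95.3 CPM), and the call was lost over all 23 libraries (adjusted p = 0.11) or without culture 2 (0.122). Sik1, a kinase that restrains the CREB coactivators, rose from 20.4 ± 2.68 to 33.99 ± 15.9 CPM (adjusted p = 0.00628). Nr4a3 and the interneuron peptide Sst fell by 0.98 and 1.07 on the log2 scale. Crem was not called over all 23 libraries (adjusted p = 0.266) and lost its call in 4 of 14 alternatives. Without culture 2, Crem (adjusted p = 0.303), Sik1 (0.117) and Sst (0.0536) were not called, and without culture 3 Crtc2 was not (0.0549). Fos and Sik1 are induced by activity as well as by cAMP, and the targets were called in both directions.

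The cAMP response element TGACGTCA was found in the 250 bases before 6 of the 18 CREB targets, against 1.69% of all protein-coding genes. These sites are shown as examples of the element in this list. The other 12 targets lack it in this window, as do the 10 members. Each window of 28 bases is from GRCm39 on the strand of the gene, with the element in capitals.
Sik1 (chr17:32075000-32075027, minus strand): gccgggccccTGACGTCAccgcccgcgg
Vgf (chr5:137059049-137059076, plus strand): gaatgaacatTGACGTCAatggggcggg
Pcsk1 (chr13:75237888-75237915, plus strand): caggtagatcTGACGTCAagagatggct
Dusp1 (chr17:26727572-26727599, minus strand): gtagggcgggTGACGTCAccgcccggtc
Ppargc1a (chr5:51711330-51711357, minus strand): tgccttggagTGACGTCAggagtttgtg
Btg2 (chr1:134007042-134007069, minus strand): ttcccaataaTGACGTCAgtgagcgatg

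Sik1, Vgf, Dusp1 and Ppargc1a of these were called higher in CRE, whereas Pcsk1 (log2 difference -0.34) and Btg2 (0.20) were not called. A shorter form of the element, TGACG on either strand, which also counts each full element, was found before 18.03% of all protein-coding genes and before 2 of the 10 members, the catalytic subunits Prkaca and Prkacb. Both are shown on the strand of the gene, with the shorter element, in its reverse complement CGTCA, in capitals.
Prkaca (chr8:84699476-84699503, plus strand): tctgcaactcgCGTCActcatccaggag
Prkacb (chr3:146518794-146518821, minus strand): cgccggggggcttgaccgCGTCActtcc

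Prkaca and Prkacb were among the 7 members with a lower mean in CRE, at log2 differences of -0.21 and -0.38.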

How the data were processed

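RNA of Nedd8cKO hippocampal cultures was measured by RNA-seq in 23 libraries. The libraries were made with a stranded mRNA kit, and the submitters' processing notes name bcl2fastq 2.20.0.422, STAR 2.7.8a and featureCounts 1.5.0-p1. The authors aligned the reads to GRCm39 and deposited whole-number counts per Ensembl gene for each library, not normalized. The strand setting of the counting and the treatment of multi-mapping reads are not given in the sources used here. Names came from GENCODE M39, which covered 56323 of 56941 identifiers.

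The comparison used 21 libraries, 11 CRE and 10 RFP, those of the count table supplied with the study. They leave out CRE 3-3 and RFP 3-2, whereas the study's methods name CRE 1-3 and CRE 3-3 as removed, so CRE 1-3, which stood apart, was kept here. The members and lists were chosen with earlier results of these data known. Genes were kept by filterByExpr and tested with the edgeR 4.0.16 quasi-likelihood test in R 4.3.3 (TMM factors, estimateDisp, robust glmQLFit, glmQLFTest), with p-values adjusted by Benjamini and Hochberg's method across the genes tested and calls at an adjusted p under 0.05. The same test was used for the interaction of culture and virus and for the culture differences among RFP libraries. CPM used TMM factors over all 23 libraries, levels per kilobase the union of annotated exons, and log2 levels a pseudocount of 0.5 CPM. The scripts were tested on simulated counts. P-values measure the spread between these libraries, and libraries of a culture may be technical repeats. No 2 libraries of a group agreed within sampling noise (chi-square per degree of freedom of at least 10.8 for CRE and 12.5 for RFP pairs).

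The text names the 10 members, Nedd8, up to 4 called genes with the smallest p in each list and the 5 genes nearest to Akap12. A gene that this rule would name is not reported here. Other names (Prkar2a and the CREB targets with a printed site) were added to complete a set. Letters before transcript starts were read from GRCm39 for the 250 bases upstream of each canonical start. Alternatives were DESeq2 1.42.0, other scaling, filters, library sets, blocks and a GC correction. Python 3.11.15 with pandas 2.3.3 and scipy 1.17.1 made the tables.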

Additional observations from a re-analysis of the deposited data

Results flagged for a closer look

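Akap12 in library RFP 1-3, at 71.0 CPM, lay apart from the other 9 RFP libraries, which ran from 37.1 to 53.4 CPM. The gap to the nearest library was 0.518 of the range of the group, above Dixon's critical value for 10 samples, which chance passes in about 1 group in 20. It was the only flag of its kind among 40 groups of 4 to 10 libraries examined for the 10 genes. RFP 1-3 was still below every CRE library, the lowest of which held 153 CPM.

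The interaction of culture and virus was called for a single gene of the 14488, Mbp, a myelin protein gene that is not a member (edgeR, adjusted p = 0.0304). The call was lost over all 23 libraries. Its log2 difference of CRE from RFP was -0.73 (SE 0.24) in culture 1, -1.22 (SE 0.23) in culture 2 and 1.1955 (SE 0.26) in culture 3. The oligodendrocyte lineage markers that include it were lower in most CRE libraries, and no member showed such a change of sign beyond its errors.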

How the results depend on the processing

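The log2 difference of Akap12 ran from 2.36 to 2.58 over 14 alternatives, and each of the 10 members moved by less than the SD of its libraries in all of them. Prkar2b alone changed sign, with a range of -0.18 to 0.05. Of 35 pathway genes taken by the naming rule, 22 were called in all 14 alternatives, none reversed, and 35 of 490 calls were lost, 8 of them for Adcy3. DESeq2 called 4786 genes and the 19 libraries 5582, against 4370. Without a filter on low counts 6920 genes were called, 4367 of them higher in CRE. Leaving out 1 culture each gave 2114 to 3730 calls, 1311 to 1907 higher and 803 to 1823 lower, and 33 to 60 pathway calls (7 to 21 higher). The lowest of these counts came without culture 2, and the cause was not tested.

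Same-numbered CRE and RFP libraries deviated from their group means with correlations of 0.035, 0.0049 and 0.15. Of the 3 CRE cultures, 1 correlated best with its own number. Whether the numbers pair the groups cannot be settled from 3 cultures. With the culture as a replicate block 4267 genes were called, with the library number as a replicate block 4235, and with sums per culture 4198. The culture as a replicate block left Prkx, Adcy3 and Pde4b uncalled, and removal of the GC trend gave 5358 calls, or 5446 with the block.

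No member was called by the interaction or by the RFP culture test under any alternative. The interaction called 0 genes over all 23 libraries, 36 over 19 libraries, 17 with DESeq2 and 88 without a filter, and 0 to 20 with 1 library left out, the most without CRE 1-3. The RFP culture test called 238 genes over all 11 RFP libraries, 209 without RFP 2-4 and 9 to 209 with 1 library left out. With counts that move this far with 1 library, the culture tests say little about the stability of the members.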

Other observations

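Among the CRE libraries compared, the library numbered 2 had the lowest Akap12 in each of the 3 cultures, at 239, 210 and 153 CPM. The other CRE libraries compared held 271 to 377, 267 to 298 and 201 to 215 CPM. Prkaca and Prkar1b were also lowest there, so that 3 of 10 members, and 795 of 14488 genes tested (5.49%), were lowest in library 2 of all 3 CRE cultures. Akap5, Akap6, Akap7 and Prkar2b were lowest in CRE 2-2 and CRE 3-2 and, in culture 1, in CRE 1-3. CRE 3-3 took no part in these counts, and it held less Akap12 (124 CPM), Akap6 (126 CPM) and Akap7 (13.0 CPM) than CRE 3-2. The labels do not say what the library number stands for.

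The CRE library left out of the comparison, CRE 3-3, held Akap5 at 42.3, Akap6 at 126 and Akap7 at 13.0 CPM, the last below every library compared. Prkar2b stood at 155 CPM there, inside the range of both groups.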
